A study of Caenorhabditis elegans with 3 samples.

Results

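The comparison described here sets the library of wild-type Caenorhabditis elegans larvae fed RNAi bacteria against swsn-2.2 beside the library of larvae fed RNAi bacteria against gfp. A gene was kept when it was above 0 FPKM in both libraries and its mean over the pair was at least 1 FPKM. FPKM is a count of fragments scaled by transcript length and by the fragments of the library. This rule kept 14270 of the 46135 genes listed, and 20495 genes were above 0 FPKM in at least 1 of the 3 libraries of the series. Each ratio below is the log2 of (FPKM + 1) in swsn-2.2(RNAi) over (FPKM + 1) in gfp(RNAi), so a positive value is higher in swsn-2.2(RNAi) and a fold of low genes is understated.

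All larvae were of the wild-type strain N2, were synchronized as L1 larvae, ate their RNAi bacteria for 36 hours and were collected as L4 larvae. The groups are swsn-2.2(RNAi), ham-3(RNAi) and gfp(RNAi), each with 1 library of poly(A) RNA from whole animals, and gfp is a sequence that N2 worms lack. The series design gives 25 °C and the growth protocol 35 °C, so the growth temperature is uncertain. With 1 library a group there are no replicates, no test was made, and every difference compares 2 libraries rather than 2 conditions. In whole animals, fewer cells of a type and less RNA per cell cannot be told apart.

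SWI/SNF complexes are chromatin remodellers that use ATP to move or evict nucleosomes, and so change access of other factors to DNA. They are built around an ATPase, which in the worm is SWSN-4, with core subunits and accessory subunits that differ between complexes. SWSN-2.2 and HAM-3 are related accessory subunits, counterparts of the mammalian BAF60 proteins. RNAi by feeding lets worms take up double-stranded RNA from bacteria and lowers the matching messenger RNA in most tissues.

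The FPKM spacing of weak single-transcript genes gave about 31000000 fragments for swsn-2.2(RNAi) and about 20210000 for gfp(RNAi). Fragments inferred for those weak genes lay within 0.1 of a whole number for 413 of 453 genes in swsn-2.2(RNAi) and for 357 of 383 in gfp(RNAi). The totals were fitted on these same genes, so these shares describe the fit and are not a separate check of the totals. Genes above 0 FPKM numbered 19042 in swsn-2.2(RNAi) and 18386 in gfp(RNAi). The 95% counting intervals given below (Clopper-Pearson, on the log2 ratio of FPKM with nothing added) come from these totals. They cover counting error only, since copies made by PCR are not independent molecules.

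Markers of the main tissues were present in both libraries. Unless a gene is said to be selected with its values known, it falls under the naming rule given with the methods, and unc-54, unc-119, ges-1 and dpy-7 here are tissue markers outside it, selected with earlier values known. The intestinal regulator elt-2 was at 16.51 FPKM in swsn-2.2(RNAi) and 12.9 in gfp(RNAi), the body-wall myosin unc-54 at 432 and 524 FPKM, the germline gene glh-1 at 262 and 255, and the neuronal gene unc-119 at 17.3 and 18.0, in the same order of libraries. The intestinal esterase gene ges-1 was listed at 0 in swsn-2.2(RNAi) and at 29.7 FPKM in gfp(RNAi), while the hypodermal collagen gene dpy-7 was at 48.5 FPKM in swsn-2.2(RNAi) and listed at 0 in gfp(RNAi). Both genes are used by every worm at this stage, so these values of 0 may be failed estimates. Adult markers were higher in swsn-2.2(RNAi): the adult cuticle collagen col-19 was at 1182 FPKM against 884 in gfp(RNAi), and the yolk protein gene vit-2 at 658 against 449. Other markers, selected with their values known, differed less. The stage marker lin-29 and the oocyte genes oma-1 and rme-2 had log2 ratios of 0.12, 0.13 and 0.14, against a median of 0.08 over all genes kept. The part of stage in the differences below was not tested.

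The targeted gene could not be measured as a reduction. The swsn-2.2 gene (C18E3.2, WBcel235 chromosome I, 4210979 to 4212667, plus strand) was listed at 0 in swsn-2.2(RNAi), at 37.8 FPKM in the ham-3(RNAi)-labelled library and at 19.3 in gfp(RNAi). Of its 3 listed transcripts, C18E3.2.1 and C18E3.2.3 were at 9.51 and 9.80 FPKM in gfp(RNAi), and all were at 0 in swsn-2.2(RNAi). Its downstream neighbour C18E3.1, selected with its values known, was also listed at 0 in swsn-2.2(RNAi), at 12.6 FPKM in the ham-3(RNAi)-labelled library and at 9.98 in gfp(RNAi), so the listed 0 was not limited to the targeted gene.

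The paralog ham-3 (ZK1128.5, chromosome III, 10120781 to 10122925, plus strand) was higher in swsn-2.2(RNAi). It was at 31.5 FPKM in swsn-2.2(RNAi), 23.1 in the ham-3(RNAi)-labelled library and 19.3 in gfp(RNAi), a log2 ratio of 0.68 for swsn-2.2(RNAi) with a counting interval of 0.56 to 0.85. The ham-3(RNAi)-labelled library was therefore not below gfp(RNAi) in the gene it targets, and its values are given only as those of a library with that label. Among 11 SWI/SNF subunit genes kept, 10 had a ratio above 0, as did 65.6% of all genes kept, and their median log2 ratio was 0.18 against 0.08 over all genes. The gene of the ATPase itself, swsn-4, had 41.6 FPKM in swsn-2.2(RNAi), 40.3 in the ham-3(RNAi)-labelled library and 29.6 in gfp(RNAi). Its log2 ratio in swsn-2.2(RNAi) was 0.48 with a counting interval of 0.43 to 0.56. For swsn-4 the gfp(RNAi) library was thus the one that stood apart. The accessory subunit gene let-526 was at 32.1 FPKM in swsn-2.2(RNAi), 32.7 in the ham-3(RNAi)-labelled library and 27.7 in gfp(RNAi). The core subunit gene snfc-5 was at 46.2, 43.4 and 41.3 in the same order. Of these subunits, ham-3 alone was past 1.5-fold.

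Most genes had similar levels in both libraries. The median log2 ratio was 0.08 (a 1.06-fold higher FPKM + 1 in swsn-2.2(RNAi)), and 90% of genes lay between -0.35 and 0.45. At 1.5-fold, 333 genes were higher in swsn-2.2(RNAi) (2.33% of genes kept) and 207 lower (1.45%). At 2-fold, 56 were higher (0.392%) and 48 lower (0.336%). A ratio above 0 was found in 65.6% of genes kept and one below 0 in 34.4%, and the counts in gene lists below are read against these shares. Ratios centred on their median gave 227 higher and 323 lower at 1.5-fold, and 39 higher and 58 lower at 2-fold, so which direction holds more genes depends on the scaling. Ribosomal protein genes, the most abundant group, lay close to 0, while vitellogenin and inducible heat shock genes lay farther from it.

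**Figure D1:**
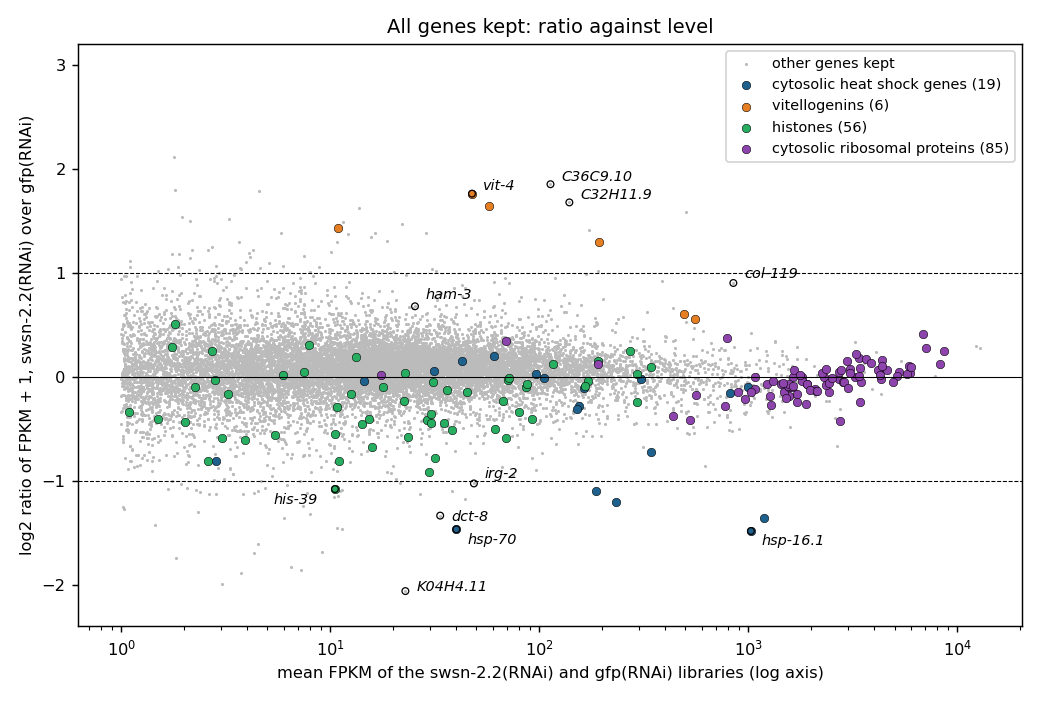
Each point is 1 of 14270 genes, with the mean FPKM of both libraries on a log x axis and the log2 ratio of FPKM + 1, swsn-2.2(RNAi) over gfp(RNAi), on the y axis; dashed lines mark 2-fold and circles mark named genes. Vitellogenins lie above 0 and the inducible heat shock genes hsp-70 and hsp-16.1 below -1, while ribosomal protein genes lie near 0 and histones mostly below it.

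Inducible heat shock genes were lower in swsn-2.2(RNAi) although they are abundant in both libraries. The small heat shock protein gene hsp-16.1, whose product holds unfolded proteins, was at 540 FPKM in swsn-2.2(RNAi), 1367 in the ham-3(RNAi)-labelled library and 1515 in gfp(RNAi). Its neighbour hsp-16.48 had 661, 1584 and 1702 FPKM across these libraries. The swsn-2.2(RNAi) library was thus the low one, while the ham-3(RNAi)-labelled library lay near gfp(RNAi). Their log2 ratios were -1.49 (interval -1.54 to -1.43) and -1.36 (interval -1.41 to -1.32).

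The second pair of the family, hsp-16.41 and hsp-16.2, lies elsewhere on chromosome V. In hsp-16.41 the swsn-2.2(RNAi) library had 139 FPKM and the gfp(RNAi) library 324, and in hsp-16.2, selected with its values known, 118 and 254. The inducible chaperone gene hsp-70 was at 20.8 FPKM in swsn-2.2(RNAi), 56.6 in the ham-3(RNAi)-labelled library and 59.3 in gfp(RNAi), a log2 ratio of -1.47 with an interval of -1.61 to -1.41. Its annotated span overlaps that of uggt-2. The near-identical HSP70 genes F44E5.4 and F44E5.5, also selected with their values known, had log2 ratios of -0.72 and -0.81. The copies hsp-16.11 and hsp-16.49 stood at or near 0 in both libraries, so the split of reads between near-identical copies is uncertain.

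Other heat shock genes differed little. Of 19 cytosolic heat shock genes kept, 7 were at least 1.5-fold lower and none 1.5-fold higher, against 1.45% and 2.33% of all genes. Their median log2 ratio was -0.16 and their summed level 4562 FPKM in swsn-2.2(RNAi) against 7332 in gfp(RNAi). The constitutive chaperone gene hsp-1 was at 769 and 860 FPKM in that order, the HSP90 gene daf-21 at 959 and 1026, and the heat shock factor gene hsf-1 at 32.1 and 30.8 (all 3 selected with their values known). Genes of the endoplasmic reticulum unfolded protein response had a median log2 ratio of -0.06 with 0 of 23 past 1.5-fold. In the mitochondrial one, hsp-6 was at 248 FPKM in swsn-2.2(RNAi) and 256 in gfp(RNAi), and 0 of 11 genes passed 1.5-fold. The low group was therefore the inducible cytosolic members.

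Some stress genes outside the heat shock families were also lower. Of 24 metal and heme handling genes, 2 were at least 1.5-fold lower, against 1.45% of all genes. These were the iron storage gene ftn-1, at 16.50 FPKM in swsn-2.2(RNAi), 32.7 in the ham-3(RNAi)-labelled library and 37.3 in gfp(RNAi), and the metallothionein gene mtl-1, at 8.69, 14.7 and 16.16. The related ferritin gene ftn-2 was at 466 FPKM in swsn-2.2(RNAi) and 507 in gfp(RNAi). In the oxidative stress list 0 of 18 genes were past 1.5-fold, with the peroxisomal catalase gene ctl-2 at 99.1 and 129 FPKM and the reductase gene msra-1 at 158 and 123. In the hypoxia list 0 of 13 genes were past 1.5-fold, and the acyltransferase gene rhy-1 came nearest at 10.1 and 6.57 FPKM.

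Yolk protein genes were higher in swsn-2.2(RNAi) in all 6 members. Vitellogenins are made in the intestine of maturing hermaphrodites and are carried to oocytes. The vit-4 gene (chromosome X, 3558769 to 3563965, minus strand) was at 74.1 FPKM in swsn-2.2(RNAi), 37.2 in the ham-3(RNAi)-labelled library and 21.2 in gfp(RNAi), and vit-1 was at 87.9, 51.7 and 27.5. The gene vit-3 was at 16.3, 9.74 and 5.43 FPKM across these libraries. In each the ham-3(RNAi)-labelled library lay between the others. The log2 ratios in swsn-2.2(RNAi) were 1.76 for vit-4 (interval 1.74 to 1.88), 1.64 for vit-1 and 1.43 for vit-3.

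Genes at higher level had smaller ratios. The vit-5 gene was at 276 FPKM in swsn-2.2(RNAi) and 112 in gfp(RNAi), and vit-6 at 592 and 389 (both selected with their values known). The highest of the family, vit-2, had a log2 ratio of 0.55. The median log2 ratio of the family was 1.36, and 5 of 6 genes were at least 1.5-fold higher, against 2.33% of all genes. The summed level was 1704 FPKM in swsn-2.2(RNAi) against 1004 in gfp(RNAi). The authors' deposited table of higher genes held 5 of the 6 and 3.99% of all genes kept. It left out vit-4, to which the authors' deposited table of all genes gives a log2 fold of 1.81 and a p-value of 1. Sequences of vit-3, vit-4 and vit-5 are much alike, so the split of reads among them is uncertain.

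Lysozyme and C-type lectin genes, many of them made in the intestine and used in defence against bacteria, were mostly higher. The lysozyme gene lys-2 was at 531 FPKM in swsn-2.2(RNAi), 336 in the ham-3(RNAi)-labelled library and 336 in gfp(RNAi), lys-4 at 121, 130 and 76.5, and the invertebrate-type ilys-5 at 399, 298 and 259. The most abundant member, lys-1, was at 942, 791 and 773 FPKM. Their log2 ratios were 0.66, 0.65, 0.62 and 0.29. Of 8 lysozyme genes, 6 had a ratio above 0, as did 65.6% of all genes kept. At 1.5-fold 3 were higher and none lower, against 2.33% and 1.45% of all genes, and the median was 0.41.

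Among 98 C-type lectin genes, 12 were at least 1.5-fold higher and 1 lower, against 2.33% and 1.45% of all genes. In 77 the ratio was above 0, against 65.6% of all genes, with a median log2 ratio of 0.24. The gene clec-170 was at 18.0 FPKM in swsn-2.2(RNAi), 11.5 in the ham-3(RNAi)-labelled library and 6.34 in gfp(RNAi), a log2 ratio of 1.37 with an interval of 1.27 to 1.74. In clec-7 the values were 6.10, 5.03 and 2.198 FPKM. The abundant clec-63, at 849 FPKM in swsn-2.2(RNAi) and 872 in gfp(RNAi), did not share this difference. The authors' deposited table of higher genes held 21 of the 98 and their table of lower genes 1, against 3.99% and 2.31% of all genes kept.

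Infection response genes went both ways. The gene irg-2, named for its response to infection, was at 31.7 FPKM in swsn-2.2(RNAi), 54.6 in the ham-3(RNAi)-labelled library and 65.6 in gfp(RNAi), a log2 ratio of -1.03. In contrast F35E12.5 (RefSeq name irg-5) was at 351, 193 and 276 FPKM, and Y82E9BR.4 (pals-16) at 7.69, 3.82 and 4.50. Of 22 genes in this list, 1 was at least 1.5-fold higher and 1 lower, against 2.33% and 1.45% of all genes. Antimicrobial peptide families of the saposin-like, caenacin and related classes held 5 higher and 1 lower of 68, to be read against the same shares. The gene fipr-11 was at 43.2 FPKM in swsn-2.2(RNAi) and 20.8 in gfp(RNAi). Of the 5 higher members fipr-11 alone had a mean above 5 FPKM, and fipr-27 was at 3.63 and 0.640 FPKM.

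A row of neighbouring genes on chromosome IV was higher in swsn-2.2(RNAi) and lower in the ham-3(RNAi)-labelled library. C32H11.9 (RefSeq name cld-1, 12935011 to 12936271, minus strand) was at 212 FPKM in swsn-2.2(RNAi), 5.91 in the ham-3(RNAi)-labelled library and 65.8 in gfp(RNAi). The adjacent dod-21 (12936738 to 12937988, plus strand) was at 22.8, 0.691 and 8.40 FPKM, and dod-24 (12940106 to 12941354) at 132, 56.9 and 87.1. The name dod stands for downstream of daf-16, the insulin pathway's transcription factor. Log2 ratios in swsn-2.2(RNAi) were 1.68 (interval 1.60 to 1.78), 1.34 and 0.59. The next gene on the other side, C32H11.8, selected with its values known, was at 47.0 FPKM in swsn-2.2(RNAi) and 51.9 in gfp(RNAi), so the difference stopped there.

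The insulin pathway list as a whole was not shifted upward. Its 24 genes had a median log2 ratio of 0.02, with 2 at least 1.5-fold higher (dod-21 and dod-24) and 1 lower (mtl-1). The corresponding shares of all genes were 2.33% and 1.45%. The glyoxylate cycle gene icl-1, a member of the same list, was at 446 FPKM in swsn-2.2(RNAi), 600 in the ham-3(RNAi)-labelled library and 651 in gfp(RNAi). Further genes named for control by daf-16 were lower on chromosome IV, namely dct-8 at 18.6, 24.4 and 48.5 FPKM, and dct-7 at 60.3, 62.2 and 97.3. F56D6.8, which lies beside dct-8, was at 50.6, 48.7 and 98.4 FPKM, and F15E6.4, which lies beside dct-7, at 26.8, 25.6 and 61.8. Of these, dct-7 and F56D6.8 were selected with their values known. For these 4 genes the ham-3(RNAi)-labelled library lay near swsn-2.2(RNAi), and gfp(RNAi) was the high one.

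**Figure D2:**
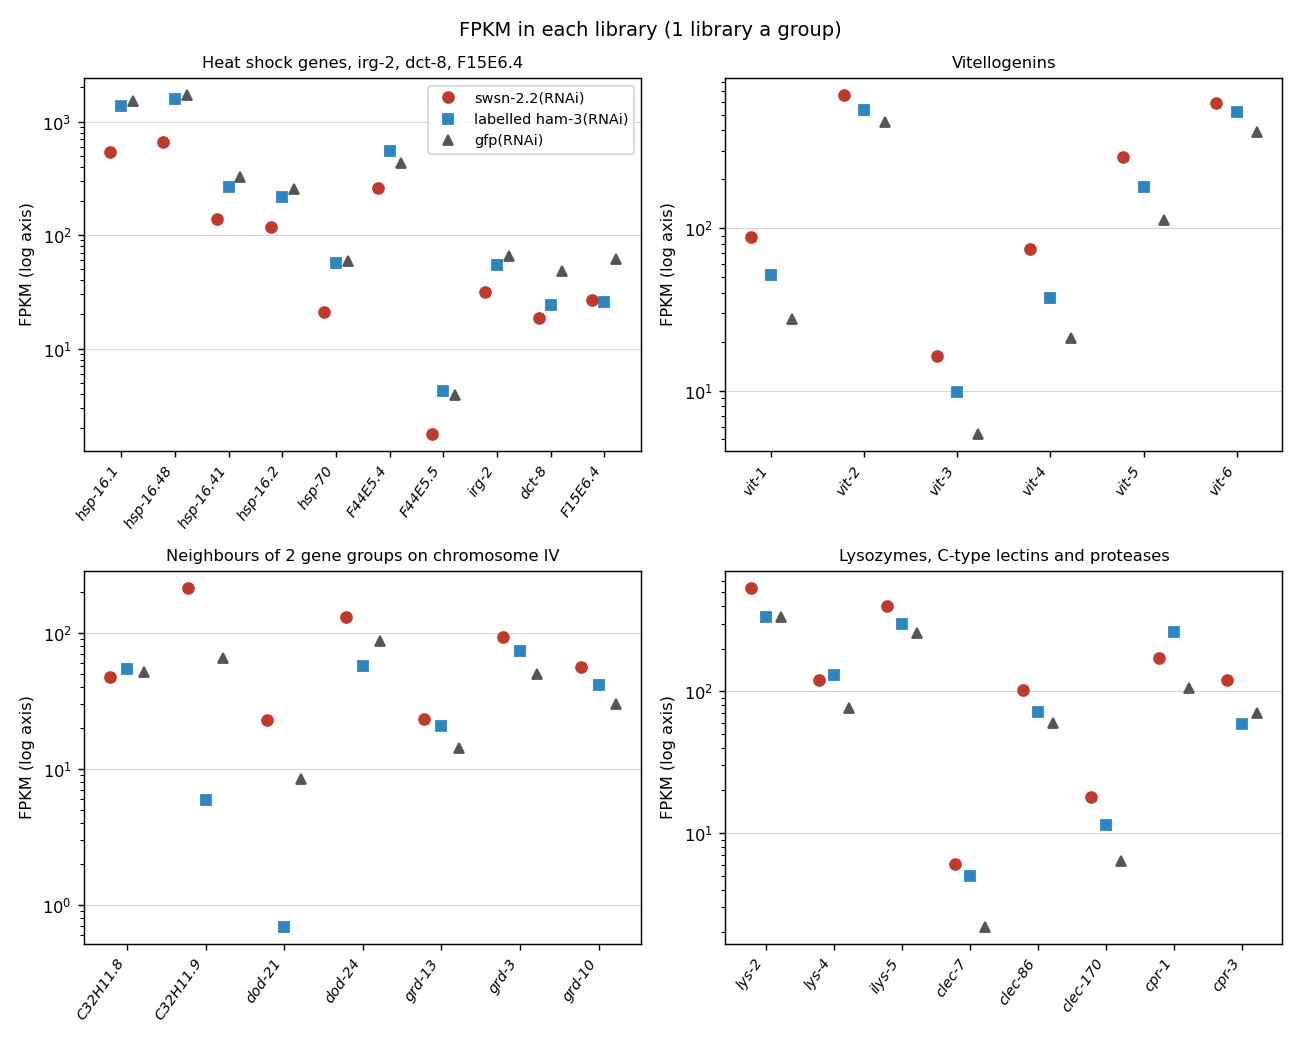
FPKM on a log y axis for genes named in the text and clec-86 in the swsn-2.2(RNAi), ham-3(RNAi)-labelled and gfp(RNAi) libraries, 1 point per library with no error since each group has 1. The heat shock genes are low in swsn-2.2(RNAi) alone, the vitellogenins run from high in swsn-2.2(RNAi) to low in gfp(RNAi), and C32H11.9 spans 212 to 5.91 FPKM.

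Digestive and detoxifying enzymes held single genes with higher levels. Of 19 aspartyl and cysteine protease genes, 3 were at least 1.5-fold higher and none lower, against 2.33% and 1.45% of all genes. The cathepsin B genes cpr-1 and cpr-3 were at 171 and 120 FPKM in swsn-2.2(RNAi), 260 and 59.1 in the ham-3(RNAi)-labelled library, and 105 and 70.8 in gfp(RNAi). F28A12.4 (asp-13), an aspartyl protease gene, was at 81.7, 68.7 and 46.6 FPKM. The most abundant member asp-1 was at 2131 FPKM in swsn-2.2(RNAi) and 1991 in gfp(RNAi). The lysosomal lipase gene lipl-4 was low in both, at 0.837 and 2.67 FPKM.

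Glucuronosyltransferases attach a sugar to foreign and waste compounds. In this family of 54 genes kept, 5 were at least 1.5-fold higher and 1 lower, against 2.33% and 1.45% of all genes, with ugt-44 at 156 FPKM in swsn-2.2(RNAi), 77.0 in the ham-3(RNAi)-labelled library and 80.2 in gfp(RNAi). The gene ugt-43 was at 13.8, 4.81 and 7.12 FPKM. Among 42 glutathione S-transferase genes, gst-38 was at 57.3, 22.1 and 31.3 FPKM, and gst-29 at 18.2, 28.2 and 29.4. Of 49 cytochrome P450 genes, cyp-13A5 alone was past 1.5-fold, at 12.3 FPKM in swsn-2.2(RNAi) and 5.37 in gfp(RNAi). Of 45 ABC transporter genes, pgp-1 and abt-4 were past 1.5-fold, at 7.78 and 40.8 FPKM in swsn-2.2(RNAi) and 4.42 and 25.7 in gfp(RNAi). The medians of these 4 families were between 0.07 and 0.16, near that of all genes.

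Cuticle collagen genes went in both directions. The col class codes for structural collagens of the cuticle, which is rebuilt at each moult. Of 125 members kept, 63 had a ratio above 0 and 62 below, against 65.6% and 34.4% of all genes, and the median was 0.01. At 1.5-fold 9 were higher and 5 lower, against 2.33% and 1.45% of all genes. Higher members were col-179, at 255 FPKM in swsn-2.2(RNAi), 221 in the ham-3(RNAi)-labelled library and 126 in gfp(RNAi), col-149 at 222, 145 and 112, and col-119 at 1104, 592 and 591. Lower members were col-70 at 4.51, 4.203 and 10.9 FPKM, and col-169, selected with its values known, at 67.0, 60.6 and 126. In col-70 and col-169 the gfp(RNAi) library stands apart, whereas in col-119 it is swsn-2.2(RNAi).

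Among the most abundant members the differences in level were large in FPKM and modest as ratios. The col-13 gene was at 5658 FPKM in swsn-2.2(RNAi) and 5111 in gfp(RNAi), and col-124 at 3590 and 2855. In the other direction col-144 was at 2230 and 2941, and col-138 at 1309 and 1836. The summed level of the class was 76934 FPKM in swsn-2.2(RNAi) and 78479 in gfp(RNAi), a ratio near 1.

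Collagens that set body shape were mostly lower, by less than 1.5-fold. Mutants in these genes are dumpy, rolling or blistered. Of 17 kept, 14 had a ratio below 0, as did 34.4% of all genes kept, and the median log2 ratio was -0.23. The gene dpy-13 was at 745 FPKM in swsn-2.2(RNAi), 868 in the ham-3(RNAi)-labelled library and 1055 in gfp(RNAi), ram-2 at 582, 545 and 787, and dpy-5 at 839, 1058 and 1077. The summed level was 5209 FPKM in swsn-2.2(RNAi) and 6357 in gfp(RNAi).

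Other cuticle and moulting genes showed smaller differences. The structural cuticlin gene cut-2 was at 159 FPKM in swsn-2.2(RNAi), 156 in the ham-3(RNAi)-labelled library and 236 in gfp(RNAi). Of 28 moulting genes, 20 had a ratio below 0, as did 34.4% of all genes kept, and none was past 1.5-fold. Among them mlt-10 was at 53.1, 70.8 and 70.7 FPKM and the peroxidase gene mlt-7 at 71.9, 34.6 and 50.9. Of 28 astacin protease genes 3 were at least 1.5-fold higher, against 2.33% of all genes. Among these 3, nas-27 was at 9.76 FPKM in swsn-2.2(RNAi) and 4.57 in gfp(RNAi).

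Hedgehog-related genes code for secreted proteins of the worm's epidermis and other tissues, and 5 of 63 kept were at least 1.5-fold higher and 3 lower, against 2.33% and 1.45% of all genes. Of the higher ones, grd-13, grd-3 and grd-10 are consecutive genes on chromosome IV between 3438312 and 3441841. The grd-3 gene was at 93.4 FPKM in swsn-2.2(RNAi), 73.4 in the ham-3(RNAi)-labelled library and 49.4 in gfp(RNAi), grd-10 at 55.7, 41.0 and 29.8, and grd-13 at 23.1, 20.8 and 14.1. Each lay in the same order over the libraries. The abundant grd-5 was at 841 FPKM in swsn-2.2(RNAi) and 821 in gfp(RNAi). Lower members, selected with their values known, included ptr-22, a patched-related gene, at 4.47 and 8.44 FPKM, and the warthog gene wrt-4 at 41.9 and 65.9.

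**Figure D3:**
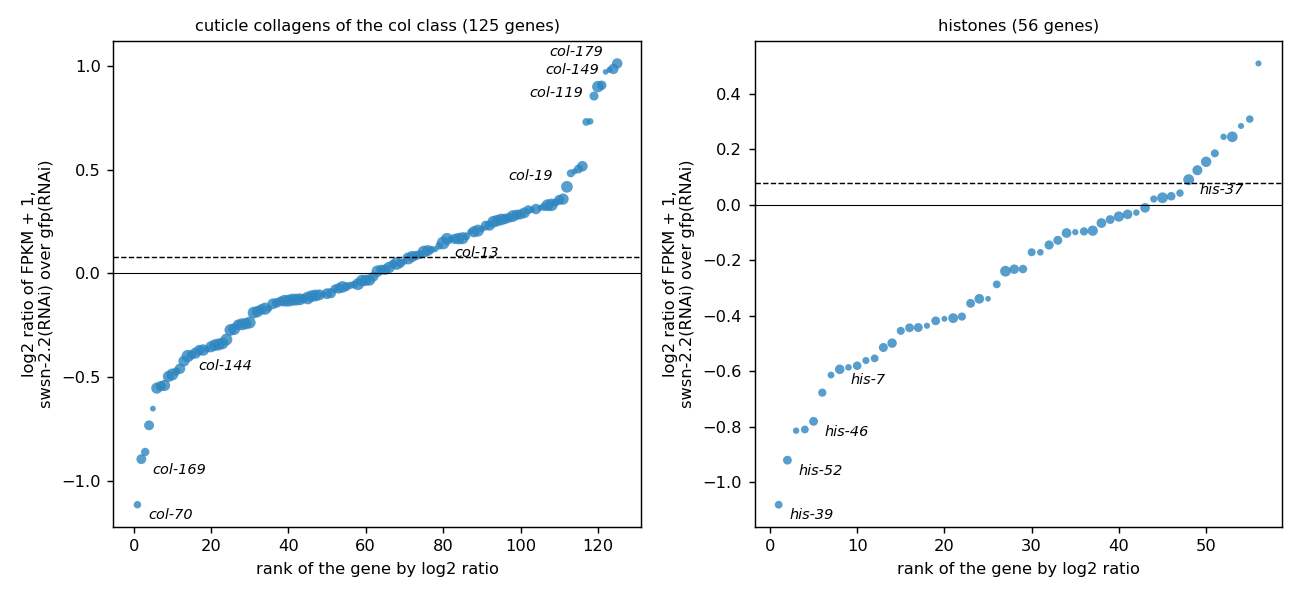
Genes of 2 families ranked from lowest to highest log2 ratio of FPKM + 1, swsn-2.2(RNAi) over gfp(RNAi), with larger points for higher mean FPKM and a dashed line at the median of all genes kept, 0.08. The col class spans both sides, from col-70 to col-179, and 43 of 56 histone genes lie below 0.

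Histone genes were mostly lower. Of 56 kept, 43 had a ratio below 0, as did 34.4% of all genes kept. None was at least 1.5-fold higher and 9 were at least 1.5-fold lower, against 2.33% and 1.45% of all genes, with a median log2 ratio of -0.23. The gene his-39 was at 6.40 FPKM in swsn-2.2(RNAi), 13.96 in the ham-3(RNAi)-labelled library and 14.7 in gfp(RNAi), his-52 at 20.3, 38.4 and 39.3, and his-46, selected with its values known, at 22.9, 33.5 and 40.1. The most abundant member, his-37, was at 352, 309 and 330 FPKM. Messages of replication-dependent histones mostly lack a poly(A) tail and these libraries were made from poly(A) RNA, and the genes occur in near-identical copies, so their levels and the split between copies are uncertain.

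The first 5 variant and linker histone genes described next had ratios below 0 and within 1.5-fold. The H3.3 genes his-72 and his-71 were at 270 and 168 FPKM in swsn-2.2(RNAi) and 319 and 173 in gfp(RNAi), and the H2A.Z gene htz-1 at 160 and 171. The linker histone genes his-24 and hil-3 were at 50.5 and 25.4 FPKM in swsn-2.2(RNAi) and 71.8 and 34.9 in gfp(RNAi), with log2 ratios of -0.50 and -0.44, below that of his-72 at -0.24. All 5 were selected with their values known, as was the linker histone gene hil-7. That gene was more than 1.5-fold lower, at 2.88 FPKM in swsn-2.2(RNAi) and 4.94 in gfp(RNAi), a log2 ratio of -0.61. Of 36 genes in the list of DNA replication, 31 had a ratio above 0, against 65.6% of all genes. Their median was 0.09, near the 0.08 of all genes. The name psf-1 matched both R53.6 and F25B5.7, with log2 ratios of 0.02 and -0.11, so this list may hold a gene that does not act in replication. Both were selected with their values known. Other chromatin remodellers had a median of 0.01, histone methylation and demethylation genes 0.05, and dosage compensation genes 0.05, with no gene of these 3 lists past 1.5-fold. The remodeller gene chd-1 was at 18.3 FPKM in swsn-2.2(RNAi) and 13.8 in gfp(RNAi).

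Hox genes pattern the body along its axis. All 8 genes kept of the list of Hox genes and cofactors had a ratio above 0, against 65.6% of all genes. Their median was 0.34 and none was past 1.5-fold. The cofactor gene ceh-60 was at 15.1 FPKM in swsn-2.2(RNAi), 13.7 in the ham-3(RNAi)-labelled library and 10.3 in gfp(RNAi). The posterior gene php-3 was at 19.2, 15.2 and 13.9 FPKM, and the anterior gene ceh-13 at 14.8, 10.6 and 10.9. For lin-39, which acts in the vulval region, the values were 16.0, 13.4 and 12.3 FPKM. The remaining members psa-3, mab-5, egl-5 and nob-1, given to complete the list, had log2 ratios of 0.28, 0.33, 0.21 and 0.17. The ham-3(RNAi)-labelled library lay nearer gfp(RNAi) for ceh-13, php-3 and lin-39.

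Other transcription factor families stayed near the median of all genes. Of 170 nuclear hormone receptor genes, 2 were at least 1.5-fold higher and 3 lower, against 2.33% and 1.45% of all genes. The median of these receptor genes was 0.04. Among them nhr-17 was at 9.18 FPKM in swsn-2.2(RNAi) and 15.4 in gfp(RNAi), and nhr-43 at 6.38 and 3.55. The bZIP gene zip-5 was at 80.7 FPKM in swsn-2.2(RNAi), 41.3 in the ham-3(RNAi)-labelled library and 51.4 in gfp(RNAi). The muscle regulator hlh-1 was at 7.65, 7.31 and 4.86 FPKM. Zinc finger and T-box genes held 3 of 56 at least 1.5-fold higher, against 2.33% of all genes. In this list tbx-36 was at 4.27 FPKM in swsn-2.2(RNAi) and 2.15 in gfp(RNAi).

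The gene ham-3 is known for its role in the HSN neurons, which drive egg laying. In the list of HSN and egg laying genes, 20 of 30 had a ratio above 0 with a median of 0.07, close to the 65.6% and 0.08 of all genes kept, and ham-3 was the one member past 1.5-fold. The cell adhesion gene kal-1 was at 6.28 FPKM in swsn-2.2(RNAi), 3.95 in the ham-3(RNAi)-labelled library and 4.38 in gfp(RNAi), and the POU factor unc-86 at 3.34, 3.35 and 2.42. FMRFamide-like neuropeptide genes had a median of 0.18 with 24 of 30 above 0, and flp-20 was at 19.1, 17.5 and 11.896 FPKM. Synaptic genes had a median of 0.04 with 0 of 41 past 1.5-fold.

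Secreted signals held a few larger differences. The insulin-like gene ins-20 was at 6.08 FPKM in swsn-2.2(RNAi), 5.49 in the ham-3(RNAi)-labelled library and 14.8 in gfp(RNAi), and ins-33 at 9.90, 5.28 and 5.01. The TGF-beta ligand gene daf-7, which acts in the dauer decision, was at 13.4, 11.1 and 8.52 FPKM. Wnt genes had 21 of 25 above 0, against 65.6% of all genes kept, with a median of 0.10, and the list of EGF, Ras and Notch genes had a median of 0.08, as had all genes. Neither list held a gene past 1.5-fold. Somatic gonad and vulva genes had a median of 0.05, with lim-7 at 8.89 FPKM in swsn-2.2(RNAi) and 6.11 in gfp(RNAi).

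Germline lists were close to the median of all genes. Meiosis genes had a median of 0.07, P granule and germline Argonaute genes 0.08, major sperm protein genes 0.11 and oocyte and eggshell genes 0.14. In the last list the eggshell gene perm-2 was at 221 FPKM in swsn-2.2(RNAi), 118.8 in the ham-3(RNAi)-labelled library and 149.01 in gfp(RNAi). The abundant sperm gene msp-79 was at 1528 and 1525 FPKM in swsn-2.2(RNAi) and gfp(RNAi). Nematode-specific peptide genes held 6 of 45 at least 1.5-fold higher and 1 lower, against 2.33% and 1.45% of all genes. These are short genes, among them nspb-3 at 8.39 and 3.48 FPKM in swsn-2.2(RNAi) and gfp(RNAi). None of the 36 meiosis, 46 P granule, 35 major sperm protein or 26 oocyte genes was past 1.5-fold.

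Lists of the translation machinery had medians on both sides of 0. Of 67 mitochondrial ribosomal protein genes, 61 had a ratio above 0 with a median of 0.16, against 65.6% above 0 among all genes kept, and of 29 aminoacyl-tRNA synthetase genes 25 were above 0 with a median of 0.13. Of 40 translation initiation and elongation genes, 29 were above 0 with a median of 0.10. Of 85 cytosolic ribosomal protein genes, 36 were above 0 with a median of -0.03. None of these genes was past 1.5-fold. The largest gain in FPKM among ribosomal genes was that of F54D7.7 (rpl-41.2), at 7831 FPKM in swsn-2.2(RNAi) and 5874 in gfp(RNAi), and the largest loss that of rpl-14, at 2346 and 3153. The most abundant elongation factor gene, eef-1A.1, was at 2244 and 2634 FPKM, below the median of its list. Upper-quartile scaling lowers the median of all genes to -0.01, so small list medians of either sign depend on the scaling.

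Mitochondrially encoded genes were mostly lower, while nuclear mitochondrial and metabolic lists had medians nearer to that of all genes. Of 14 mitochondrially encoded genes, 4 had a ratio above 0, against 65.6% of all genes kept, with a median of -0.12 and a summed level of 8026 FPKM in swsn-2.2(RNAi) and 8899 in gfp(RNAi). Of the members with the largest absolute ratios, MTCE.33 was at 59.4 FPKM in swsn-2.2(RNAi), 54.7 in the ham-3(RNAi)-labelled library and 89.0 in gfp(RNAi). In the same order MTCE.7 was at 72.4, 71.7 and 87.5, and MTCE.23 at 1415, 1381 and 1638. For these members gfp(RNAi) was the library that stood apart. Nuclear genes of oxidative phosphorylation had a median of 0.02, with C18E9.4 (ndub-3), a complex I subunit, at 504 FPKM in swsn-2.2(RNAi), 247 in the ham-3(RNAi)-labelled library and 267 in gfp(RNAi). The gluconeogenesis gene pck-2 was at 454, 552 and 637 FPKM. The vacuolar ATPase genes, which acidify the intestine and organelles, had 19 of 20 above 0 with a median of 0.14.

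Lipid genes were mixed. Of 59 beta-oxidation genes, 1 was at least 1.5-fold higher and 3 lower, against 2.33% and 1.45% of all genes. The median of the list was -0.02. The hydratase gene ech-7 was at 90.3 FPKM in swsn-2.2(RNAi), 48.9 in the ham-3(RNAi)-labelled library and 46.4 in gfp(RNAi), while the dehydrogenase gene acdh-7 was at 67.4, 91.0 and 116.4, and the carnitine transferase gene cpt-3 at 3.44, 5.56 and 7.15. The fatty acid elongases elo-5 and elo-6, which make branched-chain fatty acids, were at 283 and 455 FPKM in swsn-2.2(RNAi) and 192 and 347 in gfp(RNAi). The fatty acid and retinol binding gene far-3 was at 23.9 and 52.2 FPKM, whereas the abundant far-2 was at 7794 and 7782.

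Pharynx and muscle lists had medians just below 0. Of 84 pharynx marker genes, 45 had a ratio below 0, against 34.4% of all genes, with a median of -0.03. The pharyngeal myosin gene myo-1 was at 20.9 FPKM in swsn-2.2(RNAi), 37.5 in the ham-3(RNAi)-labelled library and 33.2 in gfp(RNAi), and its relative myo-2 at 18.3, 32.4 and 27.7. The pharynx marker tnc-2, selected with its values known, went the other way at 40.5, 35.9 and 34.8 FPKM. The body-wall muscle gene act-3 was at 3110 FPKM in swsn-2.2(RNAi) and 2944 in gfp(RNAi). Sarcomere genes had a median of -0.06 with 1 of 46 past 1.5-fold, which was myo-1.

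**Figure D4:**
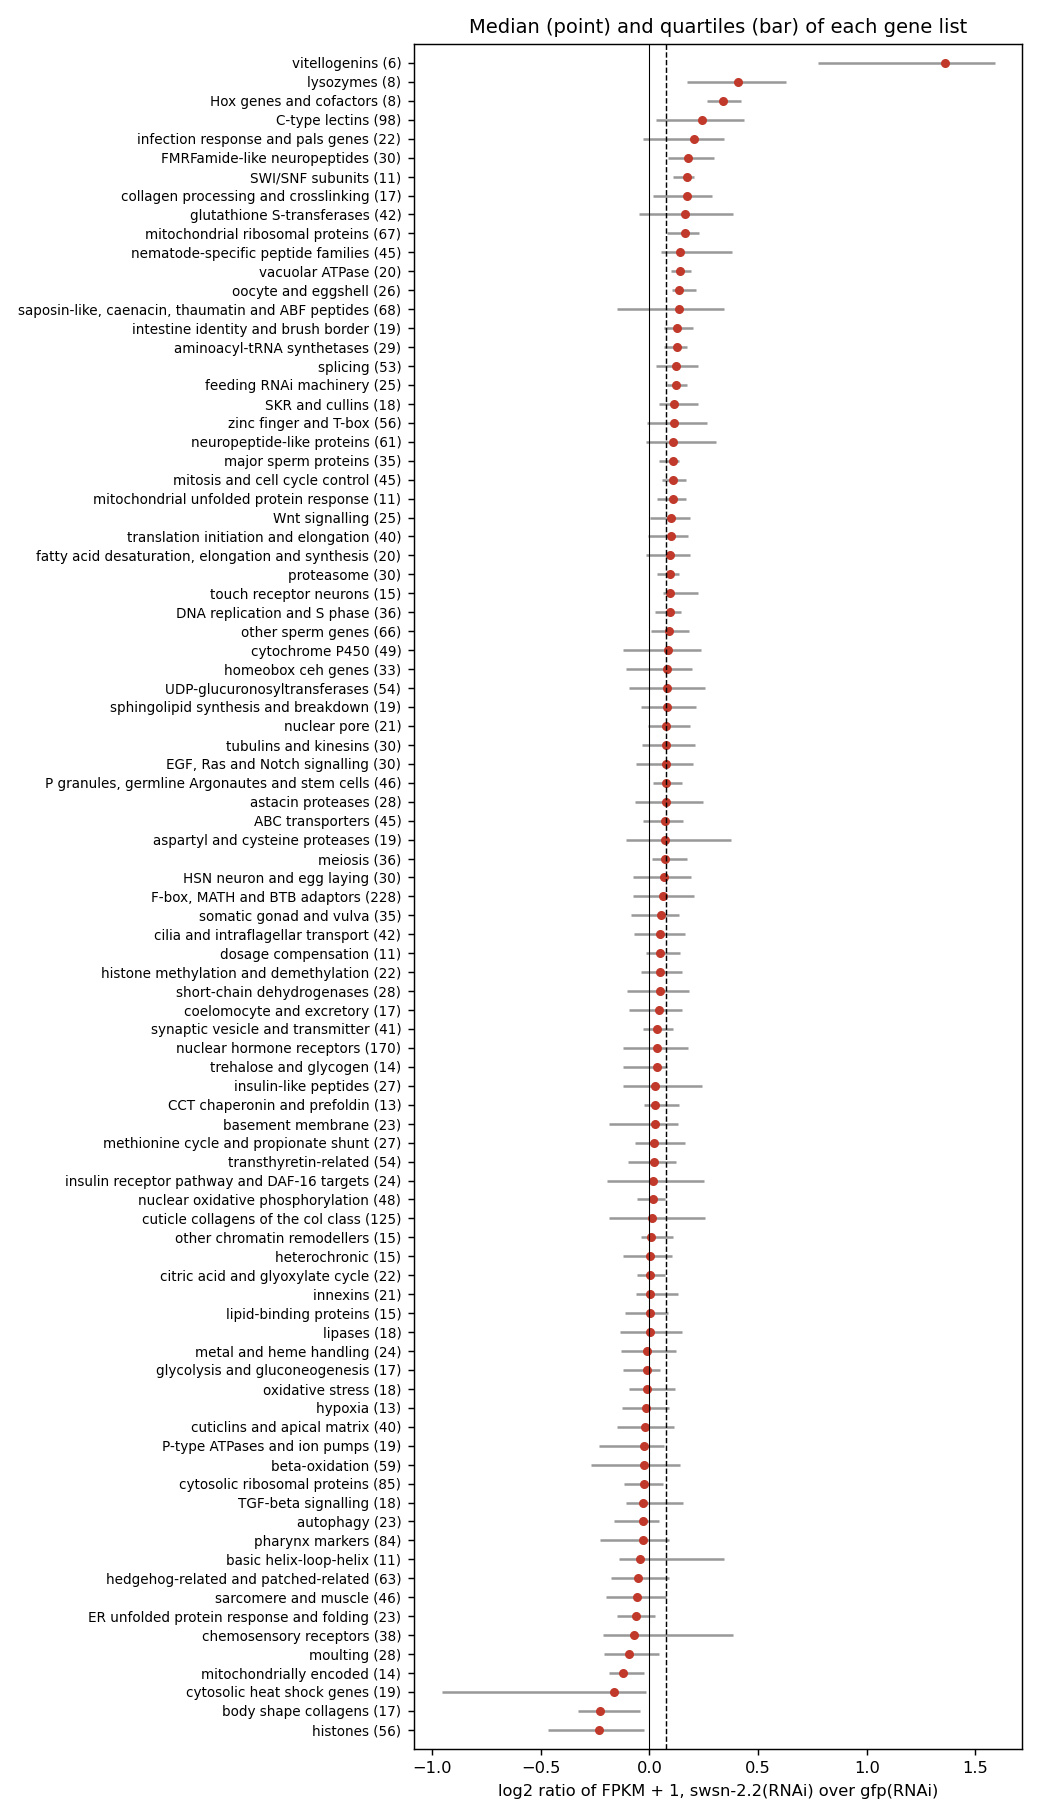
Median log2 ratio of FPKM + 1, swsn-2.2(RNAi) over gfp(RNAi), of each of 89 gene lists (points) with the quartiles of its members (bars) and the number of genes kept in brackets; the dashed line is the median of all genes, 0.08. Vitellogenins at 1.36 stand highest, followed by lysozymes at 0.41, and histones and body shape collagens at -0.23 are lowest.

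Many genes past 2-fold were short or non-coding. Of the 56 higher genes 40 were protein-coding, and of the 48 lower genes 36, against 13393 of the 14270 kept. Spliced length was below 500 bases for 50.9% of the higher genes and 64.6% of the lower ones that have an annotated length, against 10.97% of all genes. In 28 of the 56 and 21 of the 48 the mean was below 5 FPKM. The largest ratio among genes of at least 5 FPKM was that of the ncRNA C36C9.10 on chromosome X (1681752 to 1681886), at 178 FPKM in swsn-2.2(RNAi), 74.8 in the ham-3(RNAi)-labelled library and 48.5 in gfp(RNAi). The 5S ribosomal RNA gene ZK218.16 (rrn-4.2) was at 758, 1142 and 252 FPKM, and its copy ZK218.12 (rrn-4.1) at 253, 285 and 94.7.

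The lowest ratio was that of the ncRNA K04H4.11 on chromosome III, at 8.22 FPKM in swsn-2.2(RNAi), listed at 0 in the ham-3(RNAi)-labelled library and at 37.5 in gfp(RNAi). Its annotated span overlaps that of the gene K04H4.2, and the antisense RNA anr-5, at 2.28 and 10.7 FPKM in swsn-2.2(RNAi) and gfp(RNAi), overlaps the peptide transporter gene pept-3. Whether the counting used strand is not given in the sources used here, so reads of such overlapping pairs cannot be told apart. Transcripts of this size are near the fragment length, and RNAs without a poly(A) tail enter such libraries unevenly. Their part in these ratios was not tested.

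The genes around the 2-fold threshold show how little separates both sides. Just inside on the higher side were F15A4.10, at 4.24 FPKM in swsn-2.2(RNAi) and 1.62 in gfp(RNAi), and E02H4.7, at 27.4 and 13.2. Just outside were col-149, described above, and col-123, at 2.86 and 0.955 FPKM. On the lower side F48C1.9 and F48C1.11 were just inside, at 2.75 and 13.8 FPKM in swsn-2.2(RNAi) and 6.55 and 29.1 in gfp(RNAi). Just outside were lipl-4, given above, and the long non-coding RNA linc-10, at 4.44 and 9.87 FPKM.

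Of the 10 genes with the largest gain in FPKM, col-119 alone was past 1.5-fold, and the others were abundant genes with smaller ratios. The neighbouring genes Y19D10B.7 (pud-1.2) and F15E11.14 (pud-2.2), named for proteins that are more abundant in insulin receptor mutants, were at 13539 and 13953 FPKM in swsn-2.2(RNAi), 12795 and 12134 in the ham-3(RNAi)-labelled library, and 11069 and 11556 in gfp(RNAi). Their log2 ratios were 0.29 and 0.27. A related gene at much lower level, F15E11.1 (pud-2.1), was at 17.5, 7.15 and 5.60 FPKM, a log2 ratio of 1.48. Its spliced length of 465 bases equals that of the far more abundant F15E11.14, so the split of reads between them is uncertain. The part of read assignment in this ratio was not tested. The largest loss was that of F41F3.3, at 2048 FPKM in swsn-2.2(RNAi), 2372 in the ham-3(RNAi)-labelled library and 3245 in gfp(RNAi).

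Runs of at least 3 consecutive kept genes past 1.5-fold in 1 direction numbered 5, all of them higher, and these comprised 16 genes. Besides the C32H11 and grd rows, F01D5.2, F01D5.3 and F01D5.5 on chromosome II were at 20.4, 17.9 and 137 FPKM in swsn-2.2(RNAi) and 11.84, 10.2 and 87.3 in gfp(RNAi). Another run, on chromosome IV from R07C12.4 to K08D10.9, was of 4 genes, with K08D10.14 at 15.9 and 9.31 FPKM and R07C12.1 at 6.15 and 3.64. Its weakest members, R07C12.4 at 2.39 and 1.05 FPKM and K08D10.9 at 2.57 and 1.13, are annotated as pseudogenes. The last, on chromosome V, joined T05E12.6, srh-237 and the 5S gene ZK218.16, which are kept genes in sequence but not all adjacent genes. Some of these runs hold related genes, so neighbours are not independent observations.

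Chromosomes differed in their share of called genes. Chromosome X carried 19 of the 56 genes at least 2-fold higher (33.9%) and 3 of the 48 lower (6.25%), against 13.5% of all genes kept. Among the 19 are vit-1, vit-3, vit-4, vit-5, grd-4, col-179 and C36C9.10. At 1.5-fold its share was nearer to that of all genes, with 56 of the 333 higher and 34 of the 207 lower. The median log2 ratio on X was 0.04, the lowest of the 6 nuclear chromosomes, and 56.7% of its genes had a ratio above 0, against 62.4% to 70.2% on the autosomes. Chromosome V, with 2898 of the 14270 genes kept, held 74 of the 207 genes at least 1.5-fold lower and 87 of the 333 higher.

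**Figure D5:**
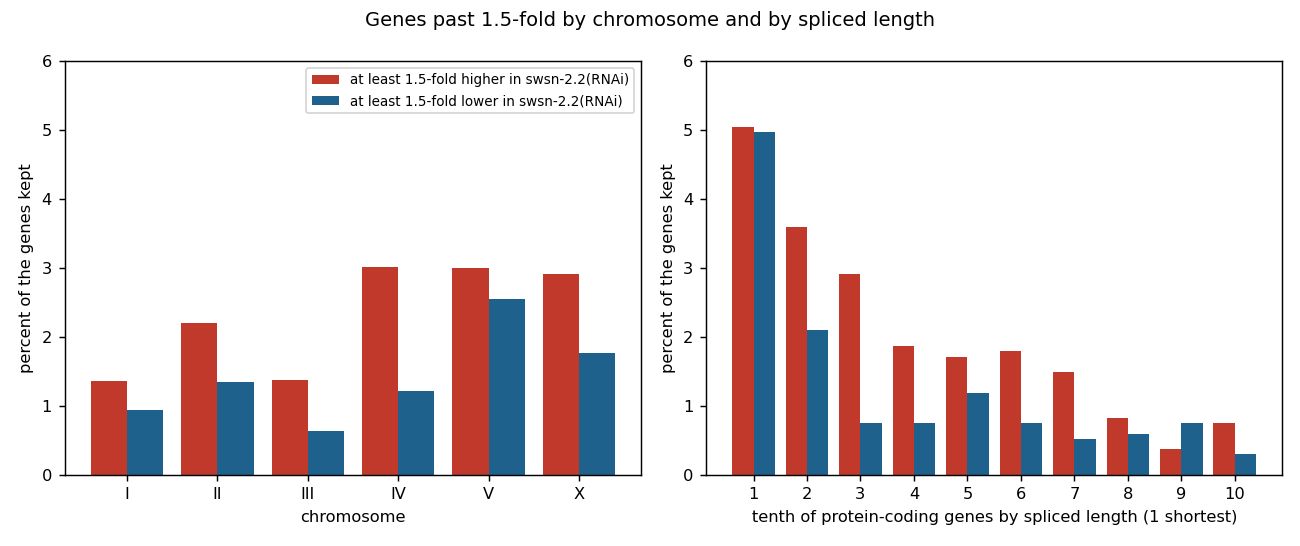
Percent of genes kept that were at least 1.5-fold higher or lower in swsn-2.2(RNAi), by nuclear chromosome (left) and by 10 equal classes of protein-coding genes ordered by spliced length (right), with bars starting at 0. Both shares are about 5% in the shortest class and below 1% in the longest.

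Length and level were related to the ratio. Among protein-coding genes the median log2 ratio was 0.10 in the shortest of 10 length classes, with a spliced length of up to 502 bases, and 0.04 in the longest. In the shortest class 5.05% of genes were at least 1.5-fold higher and 4.97% lower, against 0.746% and 0.299% in the longest. Between 1 and 3 FPKM 5.38% of genes were at least 1.5-fold higher and 3.29% lower. Of the 174 genes in the most abundant class 0 were higher and 3 lower (1.72%), namely hsp-16.1, hsp-16.48 and F41F3.3. These values bear on the short gene families named above, and their part in the list medians was not tested.

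The authors' deposited table of higher genes holds 580 genes and that of lower genes 349, of which 569 and 330 are among the genes kept. All have a p-value below 0.01 in those tables, and 286 and 196 have a q-value of at most 0.05. The authors' deposited tables contain 197 of the 333 genes at least 1.5-fold higher and 109 of the 207 lower. These are 59.2% and 52.7% of those genes, and 33.97% and 31.2% of the authors' deposited tables. With 1 library a side, the p-values in the authors' deposited tables do not measure variation between animals.

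Isoform shares were taken for genes with at least 2 transcripts above 0 in both libraries and a summed transcript level of at least 10 FPKM in each, which gave 3131 genes. The largest share difference of a gene had a median of 5.85 percentage points, and 330 genes had one of at least 20 points. The 5 largest were exchanges between variants listed for 1 gene. Several of these variants, among them ZK813.7.2 and F28B4.3.2, were not found under that name in the WBcel235 annotation. The part of read assignment between variants in these exchanges was not tested. In ZK813.7, the transcript ZK813.7.2 made up 90.3% of the sum in swsn-2.2(RNAi) and 0.269% in gfp(RNAi), with gene sums of 302 and 202 FPKM. In the heme-responsive gene F28B4.3 (hrg-11.2), F28B4.3.2 made up 87.9% and 0.856%, with sums of 39.3 and 42.0. In the acyl-CoA dehydrogenase gene acdh-12, E04F6.5a.1 made up 17.7% and 95.9%, and similar exchanges were listed for T28A11.2 and C47E8.4.

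Some genes could not be compared because a library listed them at 0. Of 14713 genes with a mean of at least 1 FPKM, 167 were listed at 0 in swsn-2.2(RNAi) and 276 in gfp(RNAi). With at least 10 FPKM in the other library there were 85 and 173. The examples that follow were selected with their values known. The muscle gene unc-87 was listed at 0 in swsn-2.2(RNAi), at 288 FPKM in the ham-3(RNAi)-labelled library and at 298 in gfp(RNAi). The mitochondrial ATP synthase gene atp-5 was listed at 0, 536 and 483 in the same order, and C08H9.2 (vgln-1) at 295, 333 and 0. No fold is given for genes listed at 0.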

How the data were processed

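Values were used as deposited. Per the submitters' processing notes the authors used Cufflinks and Cuffdiff, with versions, aligner, strand setting and genome build not given in the sources used here. The authors deposited FPKM per gene and per transcript, a log2 fold and p-value per gene, and lists of higher and lower genes with q-values. Libraries were paired-end with reads of 73 bp, per the labels' protocols. Of 44817 genes matched to RefSeq on WBcel235, all were on the same chromosome, 25367 had the same coordinates and 71.6% shared a start or an end. Of 25431 with equal length, 25367 had the same start, so the build was taken as WBcel235, and printed positions are annotated WBcel235 spans.

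From the deposited FPKM, the log2 ratio of FPKM + 1 (pseudocount 1) was computed for genes above 0 in both libraries with a mean of at least 1, in Python 3.11.15 with pandas 2.3.3 and SciPy 1.17.1. Calls were made at 1.5-fold and 2-fold. Fragment totals were inferred from FPKM steps of single-transcript genes, within 0.1 of whole numbers. Intervals used the spliced length less the fitted fragment offset and were given for genes of 1 transcript. The fold calls were tested on simulated data. That simulation used the fitted totals, so it is no check of the totals or of the intervals. The number of columns mapped to no sample was 0.

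Members and the 89 lists were chosen with earlier results of these data known. Named genes were the 15 of highest and the 15 of lowest ratio at a mean of at least 5 FPKM, the 10 largest gains and losses of FPKM, per list the 3 largest absolute ratios and the most abundant member, the 5 largest isoform differences, the 2 on each side of 2-fold, runs of at least 3 genes, swsn-2.2 and ham-3. Genes outside this rule are marked in the text as selected with their values known, that is after seeing them.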

Additional observations from a re-analysis of the deposited data

Results flagged for a closer look

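Among genes of at least 5 FPKM, 3 lay at least 2-fold above gfp(RNAi) in swsn-2.2(RNAi) and at least 1.5-fold below it in the ham-3(RNAi)-labelled library, 1 library a group, and the difference was not tested. The log2 ratios were 1.68 in swsn-2.2(RNAi) and -3.27 in the ham-3(RNAi)-labelled library for C32H11.9, 1.34 and -2.48 for dod-21, and 1.16 and -0.90 for the long non-coding RNA linc-35. The long non-coding RNA was at 10.7, 1.80 and 4.23 FPKM in swsn-2.2(RNAi), the ham-3(RNAi)-labelled library and gfp(RNAi). Of these genes linc-35, and amt-1 below, are outside the naming rule and were selected with their values known. Both comparisons share the gfp(RNAi) library. Another 7 genes did so at 1.5-fold on both sides, among them dod-24 and F01D5.2 of the runs described above, and the ammonium transporter gene amt-1 at 10.4, 3.51 and 6.35 FPKM in the same order.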

How the results depend on the processing

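The counts of genes past 2-fold and 1.5-fold depended on the treatment of low values. At 2-fold there were 134 higher and 102 lower with a pseudocount of 0.1 FPKM, 16 and 13 with one of 5, 28 and 27 at a mean of at least 5 FPKM, and 332 and 215 with genes listed at 0 in 1 library included. At 1.5-fold the same settings gave 570 and 379, 101 and 70, 186 and 114, and 609 and 374. Centred ratios gave 323 genes at least 1.5-fold lower and upper-quartile scaling 318. Without a filter, with transcripts summed or without genes the authors left untested, the counts stayed within 1.5 times. The median of all genes ran from -0.01 to 0.08. All 30 genes of largest and smallest ratio kept their direction under the 9 alternatives, and 26 stayed past 2-fold at a pseudocount of 5. These genes were picked for extreme ratios, a pseudocount or filter cannot reverse a direction, and the rescalings were small. Their kept direction is therefore no check of them. Why the counts moved was not tested. No paired analysis was possible because each group has 1 library. A library could not be left out for the same reason.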
